A study of Bos taurus with 30 samples.

Results

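The 8 genes described here carry iron into cells, store it, release it and sense it: TFRC, SLC11A2, SLC39A14, FTH1, NCOA4, SLC40A1, ACO1 and IREB2. They were chosen by name from the 27607 genes of the count tables, and each matched 1 row. FTH1 entered the list because it had been named in the comparison of epithelial cells at 10 ng/mL of insulin with vehicle, so the values of all 8 genes in that comparison are given as a description and left out of the counts of tests on treatments. The other genes were added for their known roles, with earlier results of these data known.

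Bovine endometrial epithelial and stromal cells were grown on either side of a porous membrane in a microfluidic device, the epithelial cells in the upper and the stromal cells in the lower chamber. They were primary cells from the uteri of cows that were not pregnant and were early in the luteal phase, and the stromal cells were an enriched rather than a pure population. In the glucose experiment the medium of both cell types held glucose at 5 mM or at 50 mM and flowed for 72 hours, which gave 12 libraries. In the insulin experiment every group had glucose at 5 mM and received vehicle (acetic acid in PBS), insulin at 1 ng/mL or insulin at 10 ng/mL, again over 72 hours, which gave 18 libraries. Each of the 10 groups had 3 replicates. The study calls these biological replicates, but neither it nor the labels say which replicates came from separate cows, and p-values measure the spread between these samples.

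Most iron reaches a cell bound to transferrin, which the transferrin receptor (TFRC) takes into endosomes. There SLC11A2, also called DMT1, moves ferrous iron into the cytosol, while SLC39A14 (ZIP14) carries iron that is not bound to transferrin. Iron that is not used at once is stored in ferritin, whose heavy chain is FTH1, and NCOA4 brings ferritin to the lysosome so that the iron is released again. SLC40A1, or ferroportin, is the known exporter of iron from the cell. The iron regulatory proteins ACO1 and IREB2 bind hairpins in mRNAs when iron is scarce, which stabilises the TFRC mRNA and blocks translation of the ferritin and ferroportin mRNAs. The endometrial epithelium secretes iron-binding proteins such as lactoferrin into the uterine fluid, from which the early embryo draws its nutrients. Messenger RNA was measured here, not iron or protein.

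Libraries of the glucose experiment held 13493503 to 16647701 counted reads, and those of the insulin experiment 8826470 to 13214728. A count of 3 reads corresponded to 0.222 CPM (the reads of a gene scaled to the effective size of its library) in the smallest library of the first and 0.34 CPM in the smallest of the second, and the lowest count of any of the 8 genes in any library was 33 (SLC40A1, in epithelial cells). Epithelial markers (16 genes, among them KRT18, CDH1 and EPCAM) summed to 6788 to 15678 CPM in epithelial libraries and to 4.07 to 338 CPM in stromal libraries of the insulin experiment, but to 92.6 to 4957 CPM in those of the glucose experiment. Stromal markers (16 genes, among them VIM, COL1A1 and PDGFRB) summed to 18755 to 87689 CPM in stromal and 1042 to 6218 CPM in epithelial libraries. One library went against its label in part: in replicate 3 of stromal cells at 50 mM glucose, the epithelial markers stood at a median of 70.9% of their level in epithelial libraries. They stood at 17.3% and 6.13% in replicates 1 and 2 of that group, and at 8.96%, 0.0347% and 0.12% in the 3 stromal replicates at 5 mM. Replicate 2 of epithelial cells at 5 mM also stood apart, with the highest sum of epithelial markers. Of the macrophage and leukocyte markers, 5 of 10 were found, and they summed to at most 20.2 CPM in any library, while 5 of 6 endothelial markers summed to at most 79.5 CPM. Of 8 erythroid markers only HBA was found, at 0 in every stromal library of the insulin experiment and at up to 6.20 CPM elsewhere, and 6 of 6 smooth muscle markers were found, with sums of 1261 to 9073 CPM in stromal and 31.1 to 627 CPM in epithelial libraries.

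Stromal cells carried far more ferroportin mRNA than epithelial cells, and this was the widest gap of the 8 genes. In the vehicle group of the insulin experiment SLC40A1 (ENSBTAG00000010498) stood at 4.87, 9.20 and 9.91 CPM in the 3 epithelial replicates and at 172, 229 and 196 CPM in the 3 stromal replicates. No library of one cell type came near one of the other. The log2 fold change of epithelial over stromal cells was -4.67 (standard error 0.202, adjusted p = 0.000899), which is 25.5-fold lower in epithelial cells. In these epithelial replicates 1, 2 and 3 the stromal markers stood at a median of 4.05%, 0.968% and 9.36% of their level in stromal libraries. The part of stromal RNA in the low epithelial level of SLC40A1 was not tested, here or in the other conditions, so the fold size is uncertain. A difference counted as called at an adjusted p below 0.05 and a log2 fold change of more than 0.1 in either direction. The p came from the quasi-likelihood test of edgeR with the replicate number as a block, adjusted over all genes tested.

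The gap had a similar size at both doses of insulin, in other libraries of the same replicate numbers. Over all genes, same-numbered epithelial libraries deviated together across the doses (correlations of 0.817 to 0.900), so the doses are not independent repeats. For same-numbered stromal libraries these correlations were lower and uneven, from 0.0176 to 0.733. At 1 ng/mL SLC40A1 stood at 3.95, 7.18 and 9.04 CPM in epithelial and 181, 232 and 192 CPM in stromal cells (log2 fold change -4.93, standard error 0.233, adjusted p = 7.96e-05). At 10 ng/mL it stood at 3.58, 9.03 and 10.9 CPM in epithelial and 165, 232 and 207 CPM in stromal cells (log2 fold change -4.76, standard error 0.287, adjusted p = 0.00128). Across the 9 libraries of each cell type, the highest epithelial level was 10.9 CPM and the lowest stromal level was 165 CPM. In bulk RNA, a smaller number of expressing cells and less RNA in each cell cannot be told apart.

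In the glucose experiment the stromal level of SLC40A1 was lower and the gap narrower. At 5 mM it stood at 9.01, 5.03 and 4.44 CPM in epithelial cells and at 65.6, 85.5 and 59.0 CPM in stromal cells, and the log2 fold change was -3.55 (standard error 0.400, adjusted p = 0.00552). At 50 mM it stood at 10.7, 13.2 and 4.07 CPM in epithelial cells and at 66.5, 66.2 and 18.5 CPM in stromal cells, and the log2 fold change was -2.38 (standard error 0.182, adjusted p = 0.00213). Without the replicate block the latter was -2.43 and was not called (adjusted p = 0.0599). The lowest stromal value belonged to replicate 3 at 50 mM, the library with epithelial markers. The stromal mean of SLC40A1 was 199 ± 28.4 CPM (SD, n = 3) with vehicle and 70.1 ± 13.8 CPM (SD, n = 3) at 5 mM glucose, although both media held the same glucose concentration. Normalized over all 30 libraries together, these means were 192 and 71.1 CPM. The 2 experiments were run and normalized apart, so this gap cannot be told apart from a difference between the experiments, and it was not tested.

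**Figure D1:**
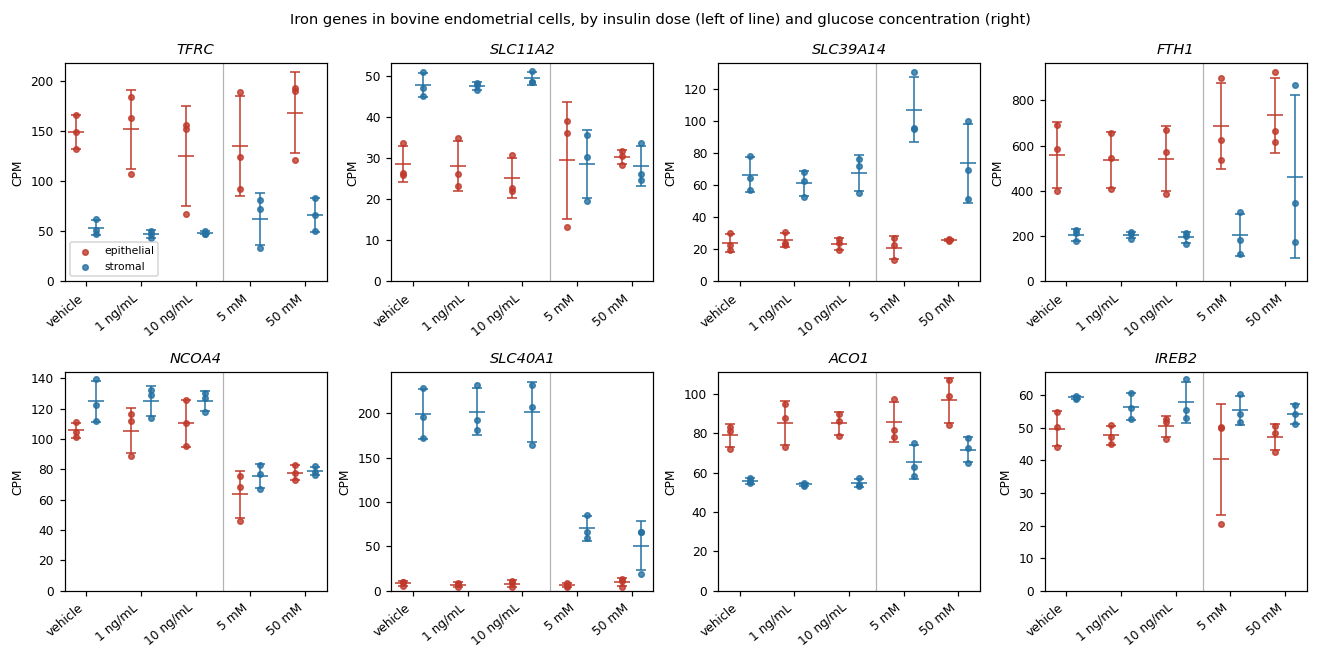
Level of each gene in CPM (vertical axis, linear from 0) in every library, by insulin dose on the left of the grey line and glucose concentration on its right. Points are single libraries, red for epithelial and blue for stromal cells, and the bars give the mean and the SD of 3 libraries. For SLC40A1 the stromal points of the insulin experiment lie between 165 and 232 CPM and all epithelial points lie under 14 CPM.

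Among the uptake genes, the transferrin receptor was higher in epithelial cells. TFRC (ENSBTAG00000032719) stood at 132, 149.5 and 166 CPM in epithelial cells with vehicle and at 47.7, 62.1 and 51.7 CPM in stromal cells. The groups did not overlap, and the log2 fold change was 1.49 (standard error 0.122, adjusted p = 0.00147), or 2.80-fold. At 1 ng/mL of insulin the values were 108, 163 and 185 CPM against 47.7, 50.8 and 43.3 CPM, and the log2 fold change was 1.67 (standard error 0.188, adjusted p = 0.00106).

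At 10 ng/mL TFRC stood at 67.7, 152 and 157 CPM in epithelial and 47.6, 47.8 and 50.6 CPM in stromal cells. Epithelial replicate 1 was the lowest epithelial library of the insulin experiment for this gene, yet it still lay above all 9 stromal libraries. The log2 fold change was 1.29 (standard error 0.272, adjusted p = 0.0159). Under glucose TFRC stood at 189, 92.0 and 125 CPM in epithelial cells at 5 mM and at 72.9, 81.0 and 33.0 CPM in stromal cells, which do not overlap, but the gene was not called (log2 fold change 1.17, standard error 0.429, adjusted p = 0.118). At 50 mM the values were 191, 194 and 122 CPM against 50.0, 83.4 and 66.4 CPM, and the gene was called (log2 fold change 1.35, standard error 0.234, adjusted p = 0.0217).

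The carrier of iron not bound to transferrin ran the other way. SLC39A14 (ENSBTAG00000019225) stood at 19.5, 22.9 and 30.4 CPM in epithelial and 56.9, 64.4 and 78.5 CPM in stromal cells with vehicle. Every stromal library exceeded every epithelial library, and the log2 fold change was -1.45 (standard error 0.0958, adjusted p = 0.00107). It was also called at 1 ng/mL (-1.24, standard error 0.129, adjusted p = 0.000824) and at 10 ng/mL (-1.52, standard error 0.0949, adjusted p = 0.0013). This gene and SLC40A1 were called in both glucose conditions too. At 5 mM SLC39A14 stood at 27.3, 13.1 and 22.5 CPM in epithelial and 130.4, 95.1 and 95.9 CPM in stromal cells (log2 fold change -2.39, standard error 0.335, adjusted p = 0.00774). At 50 mM it stood at 26.6, 25.8 and 25.4 CPM in epithelial and 69.5, 100.1 and 51.6 CPM in stromal cells (log2 fold change -1.45, standard error 0.22, adjusted p = 0.0146).

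SLC11A2 (ENSBTAG00000032914), the endosomal transporter, was lower in epithelial cells in the insulin experiment, by less. It ranged from 22.0 to 34.9 CPM over the 9 epithelial libraries and from 45.1 to 51.2 CPM over the 9 stromal libraries. Its log2 fold changes were -0.73 with vehicle (standard error 0.139, adjusted p = 0.0113), -0.76 at 1 ng/mL (standard error 0.139, adjusted p = 0.00585) and -0.97 at 10 ng/mL (standard error 0.127, adjusted p = 0.00424). In the glucose libraries no such difference was called. There the gene stood at 39.0, 13.1 and 36.1 CPM in epithelial and 35.7, 30.3 and 19.5 CPM in stromal cells at 5 mM, and at 31.8, 28.4 and 30.4 CPM against 24.6, 33.6 and 26.0 CPM at 50 mM. The groups overlapped in both, with log2 fold changes of -0.05 at 5 mM (standard error 0.479, adjusted p = 0.959) and 0.12 at 50 mM (standard error 0.18, adjusted p = 0.668). At 5 mM the sign rested on 1 replicate, since the fold change was 0.53 with replicate 2 left out and -0.53 with replicate 3 left out.

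Of the storage genes, the ferritin heavy chain was higher in epithelial cells. FTH1 (ENSBTAG00000011184) stood at 587, 401 and 689 CPM in epithelial and 226, 213 and 177 CPM in stromal cells with vehicle, without overlap. The log2 fold change was 1.43 (standard error 0.232, adjusted p = 0.00711). At 1 ng/mL it was 1.38 (standard error 0.179, adjusted p = 0.00173) and at 10 ng/mL 1.46 (standard error 0.233, adjusted p = 0.00705). In every insulin condition epithelial replicate 2 was the lowest and replicate 3 the highest of the epithelial libraries, from 387 to 689 CPM, while the stromal libraries stayed between 168 and 226 CPM. Mammalian genomes hold processed copies of FTH1, and the authors counted uniquely mapped reads only, so reads shared with such copies would be missing and the level of this gene is uncertain.

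Under glucose FTH1 stood at 625, 535 and 900 CPM in epithelial and 307, 122 and 185 CPM in stromal cells at 5 mM, and the log2 fold change was 1.83 (standard error 0.407, adjusted p = 0.0265). At 50 mM it stood at 665, 615 and 924 CPM in epithelial and 346, 174 and 868 CPM in stromal cells and was not called (log2 fold change 0.96, standard error 0.358, adjusted p = 0.122). The overlap came from stromal replicate 3, which at 868 CPM lay inside the epithelial range. With replicate 3 left out of both cell types, the log2 fold change at 50 mM was 1.38 and FTH1 was called (adjusted p = 0.028).

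NCOA4 (ENSBTAG00000019565), the receptor that delivers ferritin to the lysosome, was near the same level in both cell types. It ranged from 88.8 to 126 CPM in epithelial and from 112 to 139 CPM in stromal libraries of the insulin experiment, with log2 fold changes of -0.22, -0.23 and -0.18 with vehicle, 1 ng/mL and 10 ng/mL (standard errors 0.126, 0.136 and 0.141, adjusted p = 0.198, 0.19 and 0.336). With vehicle the libraries did not overlap, but only just, with the highest epithelial value at 111 CPM and the lowest stromal value at 112 CPM. Across the glucose libraries the gene ranged from 45.9 to 82.9 CPM in epithelial and from 67.2 to 83.1 CPM in stromal cells. Every one of these 12 glucose libraries lay below every one of the 18 insulin libraries, a gap that cannot be told apart from a difference between the experiments.

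The iron regulatory proteins differed from each other. ACO1 (ENSBTAG00000000555), which also works as the cytosolic aconitase, was higher in epithelial cells, at 72.1, 83.4 and 81.2 CPM with vehicle against 57.1, 55.5 and 54.5 CPM in stromal cells (log2 fold change 0.51, standard error 0.0994, adjusted p = 0.0118). Its stromal level was the steadiest of the 8 genes in the insulin experiment, between 53.3 and 57.2 CPM in 9 libraries. It was called at 1 ng/mL (0.67, standard error 0.112, adjusted p = 0.00431) and 10 ng/mL (0.65, standard error 0.107, adjusted p = 0.00781), and not at 5 mM (0.40, standard error 0.301, adjusted p = 0.424) or 50 mM glucose (0.44, standard error 0.171, adjusted p = 0.133). IREB2 (ENSBTAG00000002504), which has no aconitase activity, ranged from 44.3 to 54.8 CPM in epithelial and from 52.8 to 64.9 CPM in stromal libraries of the insulin experiment. Its log2 fold changes there lay between -0.25 and -0.19 and none was called (adjusted p from 0.0813 to 0.167). Under glucose they were -0.56 at 5 mM and -0.20 at 50 mM, with 20.6 CPM in epithelial replicate 2 at 5 mM and 42.7 to 50.5 CPM in the other epithelial libraries. Within each of the 5 conditions the epithelial libraries lay below the stromal libraries for IREB2, without overlap. Such a lack of overlap, in one direction or the other, held for 35.1% to 67.7% of all genes.

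In all, 6 of the 8 genes were called between the cell types in each insulin condition, 3 higher in epithelial cells (TFRC, FTH1, ACO1) and 3 lower (SLC40A1, SLC39A14, SLC11A2). Most genes differed between these cells. The share of all genes called was 55.2% with vehicle (27.8% higher and 27.3% lower in epithelial cells), 58.9% at 1 ng/mL (29.6% and 29.3%) and 54.4% at 10 ng/mL (27.1% and 27.3%), so 75% of 8 genes is not far from the background. The median absolute log2 fold change of the 8 genes was 1.08 with vehicle, beside 0.62 over all genes tested. Under glucose 3 of 8 were called at 5 mM (SLC40A1, SLC39A14, FTH1) and 3 of 8 at 50 mM (SLC40A1, SLC39A14, TFRC), where 21.1% of all genes (10.5% higher, 10.6% lower) and 17.3% of all genes (6.39% higher, 10.9% lower) were called. The libraries of both cell types did not overlap for 8, 7 and 7 of the 8 genes with vehicle, 1 ng/mL and 10 ng/mL, against 67%, 67.7% and 67.4% of all genes, and for 6 and 5 of 8 at 5 mM and 50 mM, against 42.4% and 35.1%.

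Leaving out 1 replicate ended some of these calls, and with vehicle it lowered the calls over all genes from 7392 to between 5195 and 5788. With vehicle, the adjusted p of FTH1 was 0.0515 and that of SLC11A2 0.0635 without replicate 1, and that of ACO1 was 0.0585 without replicate 2 and 0.0548 without replicate 3. At 10 ng/mL, TFRC reached 0.0621 without replicate 2 and 0.0802 without replicate 3, and ACO1 reached 0.0502 without replicate 3. At 5 mM, FTH1 reached 0.0585 without replicate 2 and 0.151 without replicate 3, and at 50 mM none of the 3 genes stayed called without replicate 1 (adjusted p of 0.0506 for SLC40A1, 0.15 for TFRC and 0.154 for SLC39A14). Of all genes, 0 of 14019 were called at 50 mM without replicate 1. Without replicate 3, the stromal library with epithelial markers and its partner, the log2 fold changes at 50 mM were -2.47 for SLC40A1, -1.67 for SLC39A14 and 1.58 for TFRC, all called. Without replicate 2, which holds the epithelial library that stood apart at 5 mM, TFRC was called at 5 mM (1.67, adjusted p = 0.022), beside SLC40A1 (-3.26) and SLC39A14 (-2.15). In one fit over all 18 insulin libraries, IREB2 and NCOA4 were called as well, lower in epithelial cells, with log2 fold changes of -0.26 and -0.23 with vehicle (adjusted p = 0.00244 and 0.00208). That fit called more of all genes too, with 10836 of 14195 called with vehicle in place of 7392 of 13395.

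**Figure D2:**
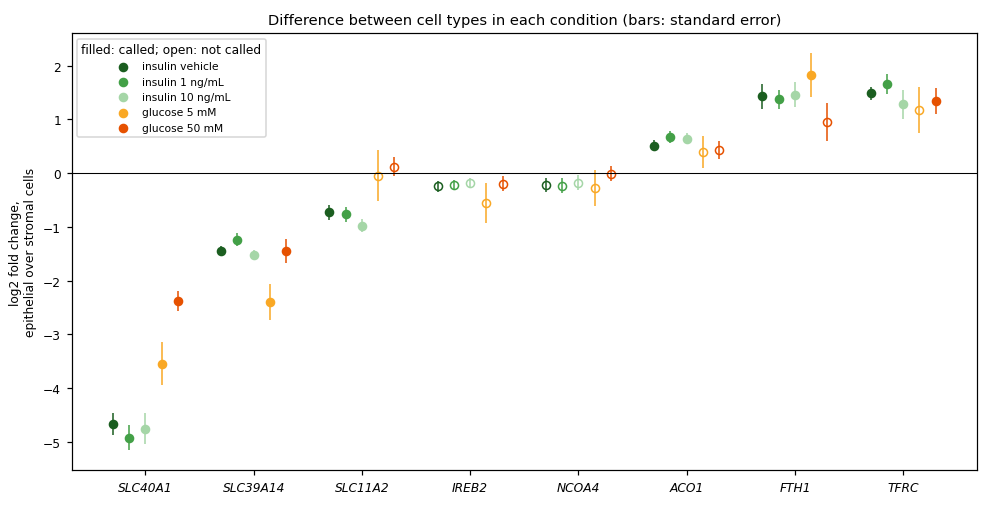
Log2 fold change of epithelial over stromal cells (vertical axis) for each gene in the 5 conditions, with the standard error as a bar. Filled points were called and open points were not. SLC40A1 lies lowest, from -4.93 to -2.38, and TFRC and FTH1 lie highest, from 0.96 to 1.83, while NCOA4 and IREB2 lie between -0.56 and -0.01 with no filled point.

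A ratio within a library does not depend on its scaling. The ratio of FTH1 to TFRC counts had nearly the same median in both cell types of the insulin experiment, at 4.15 in epithelial (2.50 to 8.44, 9 libraries) and 4.22 in stromal cells (3.31 to 4.74, 9 libraries). Both genes were higher in epithelial cells by a similar factor, and the highest ratio was that of epithelial replicate 1 at 10 ng/mL, where TFRC was low. The ratio of SLC40A1 to TFRC split the cell types without overlap, with a median of 0.0528 in epithelial (0.0367 to 0.0694) and 3.80 in stromal cells (3.46 to 4.85). Under glucose it also did not overlap, at a median of 0.0511 in epithelial (0.0335 to 0.068, 6 libraries) and 0.977 in stromal cells (0.278 to 1.79, 6 libraries), with the lowest stromal ratio in replicate 3 at 50 mM. The ratio of ACO1 to IREB2 was 1.69 in epithelial (1.44 to 1.94) and 0.959 in stromal cells (0.821 to 1.08) of the insulin experiment. Since the count of a gene grows with its length, these ratios compare groups and say nothing of which gene had more transcripts.

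**Figure D3:**
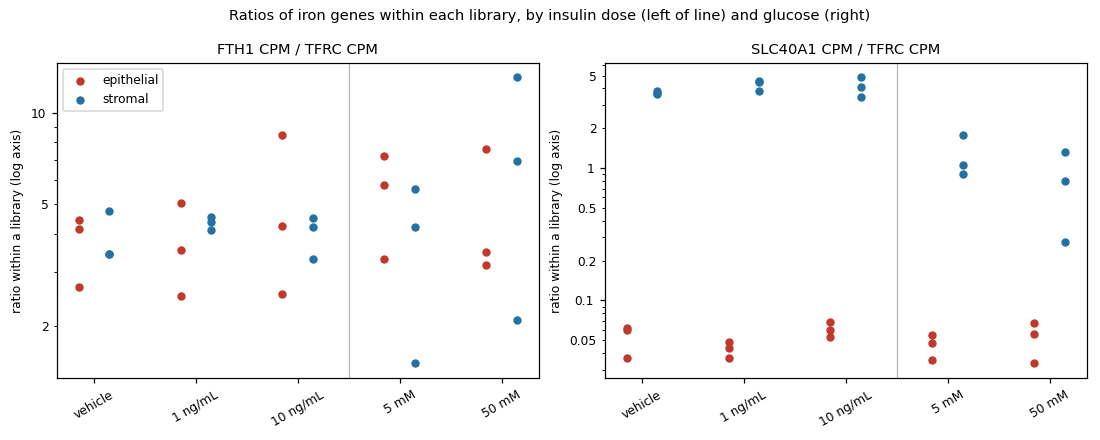
Ratio of FTH1 to TFRC (left panel) and of SLC40A1 to TFRC (right panel) within each library, on log axes, by insulin dose and glucose concentration. Points are single libraries, red for epithelial and blue for stromal cells. In the left panel the colours mix, while in the right panel every stromal point is at 0.278 or more and every epithelial point at 0.0694 or less.

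In the 7 treatment comparisons other than the one through which FTH1 was chosen, none of the 8 genes was called. Of the 56 log2 fold changes, 52 were within 0.5 of 0. The share of all genes called was 0% in epithelial cells at 50 mM against 5 mM glucose and in stromal cells for the same contrast. It was also 0% in epithelial cells at 1 ng/mL against vehicle and at 10 against 1 ng/mL, and in stromal cells at 10 ng/mL against vehicle. It was 0.0157% in stromal cells at 1 ng/mL against vehicle (2 genes) and 0.0313% in stromal cells at 10 against 1 ng/mL (4 genes). In epithelial cells at 10 ng/mL against vehicle, the comparison left out, it was 0.124% (16 genes). At an unadjusted p under 0.05, 2 of the 56 values passed with edgeR (both TFRC), beside 1.55% and 4.87% of all genes in epithelial and stromal cells under glucose. For insulin these shares were 2.95% and 4.44% in epithelial cells at 1 ng/mL against vehicle and at 10 against 1 ng/mL, and 5.16%, 2.79% and 3.91% in stromal cells at 1 ng/mL against vehicle, 10 ng/mL against vehicle and 10 against 1 ng/mL. DESeq2 with the same block called 0 of the 8 genes in each of the 7 comparisons. Between cell types, the effects of the treatments were also compared directly. None of the 8 genes was called in 3 tests of that difference, where 0%, 0.658% and 0.754% of all genes were called for 50 against 5 mM glucose, 1 ng/mL against vehicle and 10 against 1 ng/mL. The difference for 10 ng/mL against vehicle contains the comparison left out, and 0% of all genes were called in it.

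The largest fold change under insulin was that of TFRC in epithelial cells. Its values were 132, 149.5 and 166 CPM with vehicle, 108, 163 and 185 CPM at 1 ng/mL and 67.7, 152 and 157 CPM at 10 ng/mL. From 1 to 10 ng/mL it was lower in 3 of 3 pairs of the same replicate number, with log2 differences of -0.66, -0.10 and -0.23, and the fitted log2 fold change was -0.30 (standard error 0.0739, unadjusted p = 0.000978, adjusted p = 0.964). It did not pass the test over all genes, and with replicate 1 left out the fold change was -0.16. With every gene that had a count kept in the fit, the log2 fold change was -0.31 and TFRC was called (adjusted p = 3.40e-06). The cause of this dependence on the filter was not tested. Against vehicle the log2 fold change at 10 ng/mL was -0.29 (standard error 0.0859), made up of -0.95, 0.03 and -0.08 in replicates 1, 2 and 3, and it was -0.03 without replicate 1.

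In stromal cells TFRC showed smaller differences, with 47.7, 62.1 and 51.7 CPM with vehicle, 47.7, 50.8 and 43.3 CPM at 1 ng/mL and 47.6, 47.8 and 50.6 CPM at 10 ng/mL. At 1 ng/mL against vehicle the log2 fold change was -0.19 (standard error 0.0726, unadjusted p = 0.0239, adjusted p = 0.917), lower in 2 of 3 pairs. The effect of 10 against 1 ng/mL on TFRC was lower in epithelial than in stromal cells, with a difference of -0.36 on the log2 scale (standard error 0.129, unadjusted p = 0.0153, adjusted p = 0.469) and did not pass. For SLC39A14 the same difference was -0.28 (standard error 0.107, unadjusted p = 0.0212, adjusted p = 0.544).

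In the comparison of epithelial cells at 10 ng/mL with vehicle, the one through which FTH1 was chosen, FTH1 stood at 571, 387 and 669 CPM against 587, 401 and 689 CPM. It was lower in each of the 3 pairs by a similar small amount, with log2 differences of -0.04, -0.05 and -0.04, and the fitted log2 fold change was -0.04 (standard error 0.0377). SLC11A2 was also lower in 3 of 3 pairs, at 22.0, 22.8 and 30.8 CPM against 26.0, 26.3 and 33.7 CPM (log2 fold change -0.18, standard error 0.0788). ACO1 was higher in 3 of 3 pairs, at 78.8, 90.0 and 86.4 CPM against 72.1, 83.4 and 81.2 CPM (log2 fold change 0.11, standard error 0.0496). The other 4 genes had log2 fold changes between -0.05 and 0.06.

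The mean of SLC40A1 in stromal cells differed by less than the SD between the doses of insulin, at 199 ± 28.4 CPM with vehicle, 202 ± 26.4 CPM at 1 ng/mL and 201 ± 33.9 CPM at 10 ng/mL (SD, n = 3 each). The fitted log2 fold changes were 0.02 (standard error 0.0508) at 1 ng/mL and under 0.01 in size at 10 ng/mL (standard error 0.0498). The replicates kept their order, with replicate 1 lowest and replicate 2 highest in all 3 groups. For FTH1 in stromal cells the means were 205 ± 25.6, 205 ± 14.6 and 194 ± 24.2 CPM, with log2 fold changes of 0.00 (standard error 0.0532) at 1 ng/mL and -0.08 (standard error 0.0456, adjusted p = 0.999) at 10 ng/mL, where each of the 3 pairs differed by -0.08. SLC11A2 was the 1 gene whose stromal libraries did not overlap in a treatment comparison, at 48.5, 48.5 and 51.2 CPM at 10 ng/mL against 48.3, 46.5 and 47.7 CPM at 1 ng/mL, where 3.98% of all genes did not overlap, but its log2 fold change was 0.05 (standard error 0.0625).

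**Figure D4:**
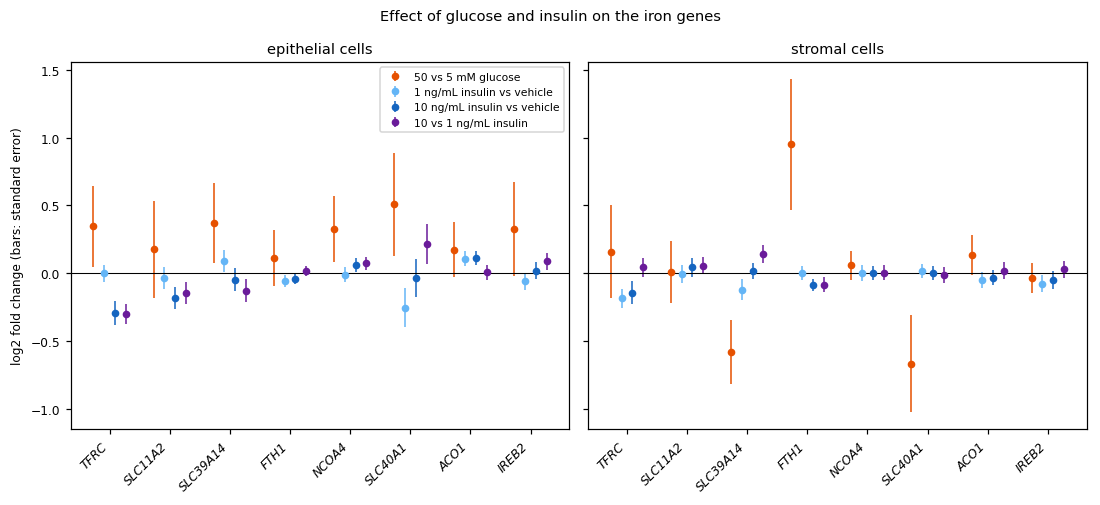
Log2 fold change (vertical axis) of each gene under glucose and insulin in epithelial cells (left) and stromal cells (right), with the standard error as a bar. Colours mark the 4 contrasts. The insulin points lie between -0.30 and 0.22, and the largest distances from 0 are those of FTH1 (0.95), SLC40A1 (-0.67) and SLC39A14 (-0.58) in stromal cells at 50 against 5 mM glucose, none of which was called.

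In stromal cells at 50 against 5 mM glucose, 3 genes stood furthest from 0, and they were picked out after their values were seen. FTH1 went from 307, 122 and 185 CPM to 346, 174 and 868 CPM (log2 fold change 0.95, standard error 0.483, adjusted p = 0.696). SLC40A1 went from 65.6, 85.5 and 59.0 CPM to 66.5, 66.2 and 18.5 CPM (-0.67, standard error 0.358, adjusted p = 0.696). In both genes the single library that departed from the rest was replicate 3 at 50 mM, the one with epithelial markers at 70.9% of their epithelial level, and in both it departed toward the epithelial level. Without replicate 3 the log2 fold changes were 0.32 and -0.20. Replicates 1 and 2 also held more of the epithelial markers at 50 mM (17.3% and 6.13%) than at 5 mM (8.96% and 0.0347%), so leaving out replicate 3 does not even them out. SLC39A14 went from 130.4, 95.1 and 95.9 CPM to 69.5, 100.1 and 51.6 CPM (-0.58, standard error 0.234, adjusted p = 0.696) and stood at -0.44 without replicate 3. The effect of glucose on SLC39A14 was 0.94 higher in epithelial than in stromal cells on the log2 scale (standard error 0.398, unadjusted p = 0.0469, adjusted p = 0.66), and 0.88 without replicate 3. The part of the epithelial RNA in these values was not tested.

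**Figure D5:**
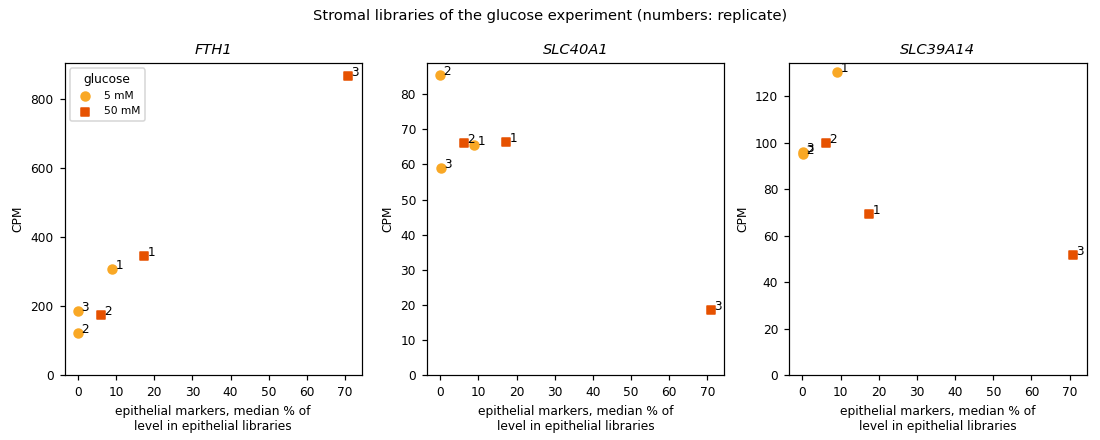
Level of FTH1, SLC40A1 and SLC39A14 in CPM (vertical axes, linear from 0) against the median level of 16 epithelial markers, as a percentage of their level in epithelial libraries (horizontal axes), in the 6 stromal libraries of the glucose experiment. Circles are 5 mM, squares are 50 mM, and the numbers name the replicates. Replicate 3 at 50 mM lies alone at 70.9%, with the highest FTH1 (868 CPM) and the lowest SLC40A1 (18.5 CPM) and SLC39A14 (51.6 CPM).

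In epithelial cells, replicate 2 at 5 mM held the lowest value of the 6 epithelial glucose libraries for 6 of the 8 genes, all but SLC40A1 and ACO1. It had 92.0 CPM of TFRC beside 189 and 125 CPM in replicates 1 and 3, 13.1 CPM of SLC11A2 beside 39.0 and 36.1 CPM, and 20.6 CPM of IREB2 beside 50.2 and 50.1 CPM. The log2 differences of 50 against 5 mM in that pair were 1.07 for TFRC, 1.06 for SLC11A2 and 1.19 for IREB2, against 0.01 and -0.03, -0.29 and -0.24, and 0.01 and -0.22 in pairs 1 and 3. They were 1.23 for SLC40A1, 0.93 for SLC39A14 and 0.75 for NCOA4 in pair 2, with 0.23 and -0.10, -0.04 and 0.17, and 0.13 and 0.08 in pairs 1 and 3. In FTH1 and ACO1 pair 2 was also the largest, by less, with 0.09, 0.20 and 0.04 for FTH1 and 0.14, 0.27 and 0.10 for ACO1 in pairs 1, 2 and 3. The fitted log2 fold changes of the 8 genes were between 0.11 and 0.51 and none was called (adjusted p of at least 0.804). Epithelial markers summed to 15678 CPM in that library and to 6788 to 8779 CPM in the other epithelial libraries of the experiment, and the part of this in the values was not tested.

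The cell type took most of the variation of these genes in the insulin experiment. Of the sum of squared deviations of log2(CPM + 1) over the 18 libraries, the difference between cell types made up 97.5% for SLC40A1, 92% for SLC39A14, 91.2% for ACO1, 89.3% for FTH1, 86.4% for SLC11A2 and 84.8% for TFRC. For IREB2 and NCOA4 it was 59.5% and 45.1%, and for NCOA4 nearly as much, 43.8%, lay between replicate numbers within a cell type. The doses of insulin made up at most 4.32% (IREB2) and at least 0.0805% (SLC40A1). In the glucose experiment the share between cell types was 85.6% for SLC39A14, 82.6% for SLC40A1, 66.8% for TFRC, 63.4% for ACO1, 50.9% for FTH1, 25.2% for IREB2 and 11.6% for NCOA4, and 0.129% for SLC11A2, whose variation lay mainly between replicate numbers (56.2%). The glucose concentration made up 27.6% for NCOA4, 12.8% for FTH1 and 9.48% for IREB2 there, and less for the other 5 genes, down to 2.38% for SLC11A2. These shares describe the libraries and carry no test.

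A wider list of 68 other genes of iron and haem handling, apart from the 8, was written down, of which 63 were found by symbol. With vehicle, 54 passed the filter on low counts and 30 were called between the cell types, 13 higher and 17 lower in epithelial cells, beside 55.2% of all genes. Of the 54, 4 passed the filter through 1 cell type only, judged over all insulin libraries of each cell type. They were BMP6 and HEPH through stromal and LTF and MELTF through epithelial libraries, so their direction was fixed by the filter and is no result. Without these 4 genes 26 of 50 were called, 11 higher and 15 lower. The 50 still include SLC39A8, which with vehicle passed the filter through the epithelial libraries. The median log2 fold change was -0.02, beside 0.00 over all genes. Of the uptake genes 9 of 12 tested were called, 3 higher and 6 lower, and the 3 included LTF and MELTF, whose direction the filter fixed. Of the storage genes and chaperones 3 of 3 were called, of the genes of sensing and mRNA control 1 of 4, of the genes of mitochondrial iron and iron-sulfur clusters 7 of 17 and of the haem genes 8 of 16. Of the export and hepcidin genes of this list, which leaves out SLC40A1, only BMP6 and HEPH were tested. In the other conditions 31 of 54 were called at 1 ng/mL (58.9% of all genes), 29 of 55 at 10 ng/mL (54.4%), 17 of 55 at 5 mM (21.1%) and 15 of 56 at 50 mM glucose (17.3%).

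The largest fold changes of the list toward stromal cells with vehicle included BMP6 and HEPH, whose direction was fixed by the filter and is no result. BMP6, the signal for hepcidin in the liver, stood at -4.99 (standard error 0.379). STEAP1, of a family of metalloreductases, was higher in stromal cells (-3.63, standard error 0.446, adjusted p = 0.00337). SLC48A1, which moves haem out of lysosomes, followed at -3.46 (standard error 0.131, adjusted p = 0.000899). Next were HEPH, the ferroxidase hephaestin that works with ferroportin (-3.38, standard error 0.569), and the haem and porphyrin exporter ABCG2 (-2.23, standard error 0.48, adjusted p = 0.0162). BMP6 and HEPH were scarce in epithelial cells, with 3, 1 and 5 reads of BMP6 and 5, 4 and 13 reads of HEPH in the 3 vehicle libraries, so their fold changes are imprecise. SLC48A1 was well covered, at 8.32, 8.19 and 9.22 CPM in epithelial and 92.2, 106 and 88.6 CPM in stromal cells. HEPH stood at 8.60, 7.90 and 4.34 CPM in stromal cells.

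The largest fold change of the list toward epithelial cells with vehicle was that of SLC39A8 (ZIP8), a metal carrier related to SLC39A14 (5.36, standard error 0.789). MELTF, the membrane-bound melanotransferrin (4.69, standard error 0.354), and LTF, the secreted iron-binding lactoferrin (4.19, standard error 0.77), had a direction fixed by the filter, which is no result. FLVCR2, of a family of transporters first linked to haem (3.36, standard error 0.235, adjusted p = 0.00116), and ALAD, an enzyme of haem synthesis (3.15, standard error 0.252, adjusted p = 0.00142), came next. SLC39A8 stood at 234, 302 and 230.0 CPM in epithelial cells and at 9.63, 13.1 and 0.572 CPM in stromal cells. Stromal replicate 3 held 5 reads of SLC39A8, so with vehicle the gene passed the filter through the epithelial libraries, and its direction there is no result. FLVCR2 held 10 reads in stromal replicate 2, near the filter. LTF had 1, 5 and 0 reads and MELTF 2, 5 and 2 reads in the stromal libraries, and their fold changes are imprecise.

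The light chain of ferritin lay opposite to the heavy chain, a gene named after its values were seen. FTL stood at 77.9, 55.2 and 65.1 CPM in epithelial and 218, 179 and 139 CPM in stromal cells with vehicle (log2 fold change -1.41, standard error 0.151, adjusted p = 0.00246). It was also called at 1 ng/mL (-1.56, standard error 0.134, adjusted p = 0.000432), 10 ng/mL (-1.31, standard error 0.107, adjusted p = 0.00174) and 50 mM glucose (-0.91, standard error 0.152, adjusted p = 0.0191), and not at 5 mM (-1.13, standard error 0.358, adjusted p = 0.0781). FTL has processed copies as FTH1 does, with the same limit from uniquely mapped reads.

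Of the wider list, HMOX1, the enzyme that breaks down haem and frees its iron, was the only gene called in any of the 8 treatment comparisons as fitted here, with edgeR, the filter and all replicates. It was 1 of 53 list genes tested in epithelial cells at 10 ng/mL of insulin against vehicle, where 0.124% of all genes were called (16 of 12853). HMOX1 stood there at 49.5, 40.5 and 42.4 CPM with vehicle and at 106, 42.9 and 47.1 CPM at 10 ng/mL (log2 fold change 0.53, standard error 0.104, adjusted p = 0.0143). The gain lay in replicate 1, the same library that had the lowest epithelial TFRC of the insulin experiment, and without replicate 1 the log2 fold change was 0.12 and not called (adjusted p = 0.98). It was not called by DESeq2 (adjusted p = 1.00), without the replicate block (adjusted p = 1.00) or with all epithelial libraries in one fit (adjusted p = 0.608). At 1 ng/mL the level was 54.9, 51.2 and 52.8 CPM, and the gene was not called against vehicle (0.26, standard error 0.0646, adjusted p = 0.94). Other settings called other genes. By DESeq2, ALAD (1.23, adjusted p = 0.0463) and FLVCR2 (2.58, adjusted p = 0.0224) were called higher in stromal cells at 50 than at 5 mM glucose, and both are among the genes with higher epithelial levels named before. The stromal library with epithelial markers, replicate 3 at 50 mM, is part of this comparison. Without replicate 2, ALAD was called in epithelial cells at 50 against 5 mM (0.49, adjusted p = 0.0164). In stromal cells SLC39A8 was called lower at 1 ng/mL than with vehicle with no filter on low counts (-1.33, adjusted p = 0.00389) and without replicate 3 (-1.69, adjusted p = 0.000635), and without replicate 3 it was called higher at 10 than at 1 ng/mL (1.05, adjusted p = 0.0418). This gene, too, was higher in epithelial cells, and its stromal median in the insulin experiment was 1.63 CPM. Epithelial markers in stromal replicates 1, 2 and 3 summed to 15.7, 338 and 8.69 CPM with vehicle. These sums were 11.2, 4.15 and 10.7 CPM at 1 ng/mL and 287, 4.07 and 33.1 CPM at 10 ng/mL. The part of epithelial RNA in these calls was not tested.

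For TFRC, FTH1 and SLC40A1 the 3 genes with the most similar pattern were sought among 10258 genes with a mean of at least 5 CPM in each experiment. Similarity was Pearson's r of log2(CPM + 1) after the mean of each cell type was taken away, over the 18 insulin and the 12 glucose libraries apart, ranked by the lower of both. For TFRC these were CYB5B (r = 0.81 and 0.80), ENSBTAG00000052184 (0.83 and 0.73) and SLC30A9, named for a zinc transporter family (0.75 and 0.73). For FTH1 they were UGT1A1, a glucuronosyltransferase (0.91 and 0.88), ENSBTAG00000009359 (0.89 and 0.85) and LURAP1L (0.78 and 0.81). For SLC40A1 they were ALG14, of protein glycosylation (0.94 and 0.89), the peptidase TPP2 (0.86 and 0.94) and BTBD19 (0.85 and 0.87). The points share libraries, replicate numbers and scaling, and the values are a description. The glucose libraries include the stromal library with epithelial markers, in which FTH1 and SLC40A1 departed from the other stromal libraries. Its part in these r values was not tested.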

How the data were processed

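The epithelial and the stromal cells were taken from the devices apart, with trypsin, and their RNA was sequenced from stranded libraries as single-end reads. After adapter and quality trimming (Cutadapt, fastq_quality_filter) and alignment to the cow genome of Ensembl release 96 with Rsubread, the authors kept uniquely mapped reads and deposited gene counts from featureCounts, not normalized, for 27607 genes in 30 libraries. The strand setting of the counting and the name of the assembly are not given in the sources used here. The authors' tables of comparisons gave the gene symbols (14951 genes). Their columns of fold changes and p-values were not used.

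Counts were fitted with edgeR 4.0.16 in R 4.3.3 (TMM normalization, filterByExpr, quasi-likelihood test, Benjamini-Hochberg adjustment over all genes tested). The replicate number was the block, after the paired sample design of the study's methods. Over all genes, same-numbered libraries deviated together (every correlation over 0.1) in 10 of 13 comparisons, and the correlations ranged from 0.0176 to 0.900. The exceptions were stromal cells at 10 ng/mL of insulin against vehicle and the cell types at 10 ng/mL of insulin and at 5 mM glucose. CPM used TMM library sizes within an experiment. No replicates agreed within sampling noise: the lowest chi-square per degree of freedom between replicates was 17.4. The fits were tested on simulated data.

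The 8 genes and all lists were chosen with earlier results of these data known. By rule, the text names all 8 genes, a treatment fold change where the unadjusted p is under 0.05 (and FTH1 in epithelial cells at 10 ng/mL of insulin), and from the wider list the 5 largest fold changes called in each direction between the cell types with vehicle and any gene called in a treatment comparison. Alternatives were DESeq2 1.42.0, its size factors, no filter on low counts, no replicate block, all libraries in one fit and leaving out each replicate. Precision is limited by 3 replicates, and the count floor covers counting error only.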

Additional observations from a re-analysis of the deposited data

How the results depend on the processing

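Between 4 and 6 of the 8 genes were called between the cell types with vehicle when 1 replicate was left out, 6 at 1 ng/mL, 4 to 6 at 10 ng/mL, 2 to 3 at 5 mM and 0 to 4 at 50 mM glucose, the 0 without replicate 1. Over all genes these fits called 5195 of 13451, 5788 of 13569 and 5762 of 13510 with vehicle without replicates 1, 2 and 3, in place of 7392 of 13395. They called 6345 to 6740 genes at 1 ng/mL (7852 with all replicates) and 4940 to 6124 at 10 ng/mL (7224). At 5 mM they called 2262 to 3362 genes (2944 with all replicates) and at 50 mM 0 to 3897 (2397). With no filter on low counts, 1 gene (TFRC) was called in epithelial cells at 10 ng/mL against vehicle (a comparison given only as a description, from whose counts nothing is read), 1 (TFRC) at 10 against 1 ng/mL and 1 (TFRC) in the difference between the cell types for 10 against 1 ng/mL, in place of 0; the cause was not tested. Leaving out a replicate gave 0 to 1 genes in epithelial cells at 10 ng/mL against vehicle, the 1 being TFRC without replicate 2 or 3. The other treatment comparisons and differences gave 0 calls under all alternatives run. Of 126 counts of the 8 genes under alternatives, 120 stayed within 1.5 times the reported count.

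The replicate block decided 1 call between cell types: without the block SLC40A1 at 50 mM glucose kept its log2 fold change, -2.43, but its adjusted p was 0.0599, so that 2 of 8 genes were called. Without the block, 1088 genes in place of 2397 were called there, and 0 in place of 16 in epithelial cells at 10 ng/mL against vehicle. It called 0 genes in place of 92 and 105 in the differences between the cell types for 1 ng/mL against vehicle and 10 against 1 ng/mL. SLC11A2 at 5 mM glucose reversed to 0.053 without the block and ranged from -0.53 to 0.53 when 1 replicate was left out, and NCOA4 at 50 mM glucose ranged from -0.051 to 0.0088, with the sign reversed without replicate 2 or 3. None of these was called.

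Over all genes, the treatment comparisons gave 0 to 16 calls with edgeR as in the report, 0 to 195 by DESeq2, 0 to 165 with no filter on low counts and 0 to 221 when 1 replicate was left out. Between the cell types at 50 mM glucose, 0 genes were called without replicate 1 and 3897 without replicate 3, and at 5 mM 5969 with all libraries in one fit, in place of 2944. DESeq2 called 195 genes in stromal cells at 50 against 5 mM glucose, where edgeR called 0; none of them was one of the 8, and 2 were of the wider list. It also called TFRC at 5 mM glucose between the cell types (log2 fold change 1.18, adjusted p = 0.0467) and FTH1 at 50 mM (0.95, adjusted p = 0.0392). Counts of the wider list moved by over 1.5 times in 13 of 102 cases, down to 0 at 50 mM glucose without replicate 1 (15 with all) and to 18 with vehicle without replicate 1 (30 with all). With vehicle without replicate 1, the calls over all genes were 5195 in place of 7392. TMM over all 30 libraries, an alternative added after seeing the data, moved 5 of 80 group means by more than their SD, among them IREB2 in stromal cells with vehicle, from 59.4 to 57.0 CPM. The calls of the wider list and the values of HMOX1 under alternatives were added then too. FTH1 has 1 row, so a sum over rows was not run, and in the glucose treatment comparisons a fit of all libraries of the cell type is the same fit.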
